A study of Homo sapiens with 10 samples.

Results

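The DEAD and DEAH box genes are a family of RNA helicases, named for a short run of amino acids in their ATP-binding motor. Probe sets were taken as members where the platform annotation gave a single gene symbol of DDX or DHX followed by a number. DDX58 and DDX60 were left out, and each gene was represented by its probe set with the highest mean signal. This gave 20 genes on 21 probe sets, of 8746 probe sets without controls and 7713 genes with a probe set of their own. A further 3 probe sets carried several symbols, one of them DDX or DHX, and were not counted as members. The platform annotation was matched to 20 of 20 genes in RefSeq.

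U937 is a human monocytic cell line, and all 10 arrays measured total RNA from U937 cells that had been differentiated with IFN gamma. The groups were cells with CD64 cross-linked for 6 h, CD64 for 2 h, CD32 for 6 h, CD32 for 2 h, and a control without cross-linking for which the labels give no time. Each of the 5 groups had 2 arrays, named array 1 and array 2 here. CD64 and CD32 are the high-affinity and a low-affinity receptor for the Fc part of IgG, and the comparisons ask what engaging each of them did to RNA levels. The labels do not say that the paired arrays came from separate cultures, so p-values measure the spread between these arrays, which may be technical. In a bulk RNA sample, fewer cells of a type and less RNA per cell cannot be told apart.

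DEAD and DEAH box proteins use ATP to unwind short RNA duplexes or to strip proteins from RNA. Each step in the life of an RNA has its own members: transcription, splicing, export from the nucleus, ribosome assembly, translation and decay. In myeloid cells some members, among them DDX3X, DDX41, DHX9 and DHX15, are also known as sensors of foreign nucleic acid or as adaptors of such sensors.

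Promoter windows are shown first, for DDX3X, DHX9, DDX1, DHX15 and DDX41, the members for which 3 or more of the 4 differences from control passed the test described below. Each is the 250 bases before the RefSeq start of the gene in GRCh38.p14, read along the gene's own strand. The regions are chrX:41333058-41333307 (plus strand) for DDX3X, chr1:182839097-182839346 (plus) for DHX9, chr2:15591618-15591867 (plus) for DDX1, chr4:24584555-24584804 (minus) for DHX15 and chr5:177516962-177517211 (minus) for DDX41. Capitals mark matches to 10 motifs on either strand.
DDX3X promoter: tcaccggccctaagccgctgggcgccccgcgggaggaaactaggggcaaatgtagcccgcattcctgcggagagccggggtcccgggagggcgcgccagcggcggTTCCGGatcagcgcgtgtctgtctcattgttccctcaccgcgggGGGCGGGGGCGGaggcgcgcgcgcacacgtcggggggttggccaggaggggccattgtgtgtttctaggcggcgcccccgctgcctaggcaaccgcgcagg
DHX9 promoter: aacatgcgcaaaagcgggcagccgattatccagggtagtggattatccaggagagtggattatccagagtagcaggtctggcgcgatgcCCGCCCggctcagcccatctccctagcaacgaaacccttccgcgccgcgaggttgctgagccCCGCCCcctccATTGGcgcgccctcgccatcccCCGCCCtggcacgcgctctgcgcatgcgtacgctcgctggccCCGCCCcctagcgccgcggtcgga
DDX1 promoter: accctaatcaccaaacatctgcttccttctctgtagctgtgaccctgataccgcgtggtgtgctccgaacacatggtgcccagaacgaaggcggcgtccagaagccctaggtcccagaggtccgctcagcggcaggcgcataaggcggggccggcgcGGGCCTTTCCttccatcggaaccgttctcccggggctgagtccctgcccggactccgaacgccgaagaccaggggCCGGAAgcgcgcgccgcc
DHX15 promoter: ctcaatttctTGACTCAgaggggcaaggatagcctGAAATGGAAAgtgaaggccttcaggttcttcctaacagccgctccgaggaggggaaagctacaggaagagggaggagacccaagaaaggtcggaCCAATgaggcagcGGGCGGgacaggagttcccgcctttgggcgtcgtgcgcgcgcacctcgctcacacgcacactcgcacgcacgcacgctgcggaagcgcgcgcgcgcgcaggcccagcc
DDX41 promoter: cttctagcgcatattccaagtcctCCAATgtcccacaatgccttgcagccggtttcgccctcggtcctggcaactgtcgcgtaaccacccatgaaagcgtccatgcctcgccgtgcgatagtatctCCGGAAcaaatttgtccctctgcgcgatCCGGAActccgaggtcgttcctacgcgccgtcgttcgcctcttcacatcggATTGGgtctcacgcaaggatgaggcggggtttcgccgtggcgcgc
The capitals in DDX3X are a GC box pair and an ETS core, those in DHX9 are GC boxes and a CCAAT box, and those in DDX41 are CCAAT boxes and ETS cores. DDX1 has the letters of an NF-kappaB site and an ETS core. DHX15 has an AP-1 site, the core of an interferon-stimulated response element, a CCAAT box and a GC box. No 2 different motifs overlapped in these windows, which is a count of 0 overlapping pairs in each.

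The 10 motifs were searched in 27305 RefSeq promoter windows of the same length, 20 of which belong to the members. The ETS core CCGGAA was in the windows of 9 of 20 members and in 14.8% of all windows. The CCAAT box (letters CCAAT) was in 10 of 20 members and 33% of windows, and the GC box GGGCGG in 10 of 20 members and 42.2% of windows. TTCNNNGAA, the STAT site, was in 4 of 20 members and 6.76% of windows. The NF-kappaB site, written as GGG, any 2 bases and TTTCC, was in 2 members (DDX1 and DDX43) and 1.74% of windows. TGANTCA, for AP-1, and the core of the interferon response element, written as GAAA, any 2 bases and GAAA, were each in 1 member (DHX15), against 6.57% and 3.07% of windows. TGACGTCA, the cAMP response element, was in 1 member (DDX10) and 1.75% of windows. Neither TATAAA (11.2% of windows) nor the E-box CACGTG (6.46%) was found in a member. The 5 windows shown held G or C at 72.8% for DDX3X, 67.6% for DHX9, 66% for DDX1, 63.2% for DHX15 and 59.6% for DDX41, with a median of 57.6% over all windows. A match is a match of letters and says nothing of binding.

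The deposited values were on one scale, with trimmed means between 500.5 and 500.6 on all arrays and array medians between 100.65 and 152.35. Of 13 monocytic marker genes, 9 had a probe set of their own and 7 were above the floor of 37.5 on all arrays, FCGR2A, the gene of a CD32 receptor, among them at 595.7 to 737. CD14 was above the floor on 3 arrays and MPO on 2. The summed signal of the monocytic markers was 6033.5 to 6529.2 in CD64 6 h cells, 5309.9 to 5816.6 in CD64 2 h cells, 11031 to 12410.1 in CD32 6 h cells, 7993.6 to 8079.3 in CD32 2 h cells and 9911.4 to 11608.8 in control cells. ELANE and AZU1, with mean signals of 3371.15 and 2252.99, weighed most in this sum, and SPI1 (282.2) and CSF1R (140.35) weighed little. Summed markers of T cells (all 6 listed), B cells (3 of 4), erythroid cells and platelets (3 of 4) and epithelium and fibroblasts (5 of 6) did not exceed 601.7 on any array. KRT19 was not above the floor on any, but HBB (169.6 to 463.7), CD79A (76.5 to 246.9) and CD2 (38.4 to 105.3) were on all 10. The erythroid and platelet sum was 429.8 to 493.6 in CD64 6 h and 542 to 601.7 in CD64 2 h cells. It was 392 to 394.2 in CD32 6 h, 316.1 to 400.9 in CD32 2 h and 313 to 320.8 in control cells. The 9 spiked bacterial control probe sets averaged 9.61, 11.19, 12.61, 11.48 and 10.89 on the log2 scale in CD64 6 h, CD64 2 h, CD32 6 h, CD32 2 h and control arrays. The 3' to 5' ratio of actin in the same order was 1.12, 1.81, 1.99, 1.56 and 1.30. That of GAPDH was 0.88, 0.95, 1.17, 0.88 and 0.87. RNA quality, labelling or hybridisation and group therefore cannot be told apart in any result below.

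The members' probe sets covered signals from 1.2 to 5172.6, and 15 of 20 were above the floor on all 10 arrays. Signal depends on the probes as well as on the RNA, so no member's level is set against another's. DDX17 had a signal of 3315 to 5172.6, DHX15 of 2162.4 to 4733.4, DDX43 of 1.2 to 63.2 and DDX4 of 1.8 to 8.4. DDX4 is a germ-cell helicase, and it was not above the floor on any array and was not tested. DDX25, a testis helicase of mRNA export, was above the floor on 2 arrays (3 to 40.3), as was DDX43, known as a cancer and testis antigen, so nothing is said of change in either. Of the 15 members above the floor on all arrays, the SD within pairs was 0.0639 to 0.378 on the log2 scale, with a median of 0.152, against a median of 0.259 over all 7708 probe sets tested. The 7708 include dim probe sets, and no SD was taken over those above the floor on all arrays, so the 2 medians are of unlike sets. For the 15 members, the distance between the highest and lowest group means was 0.38 to 1.72 on the log2 scale, with a median of 0.64.

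**Figure D1:**
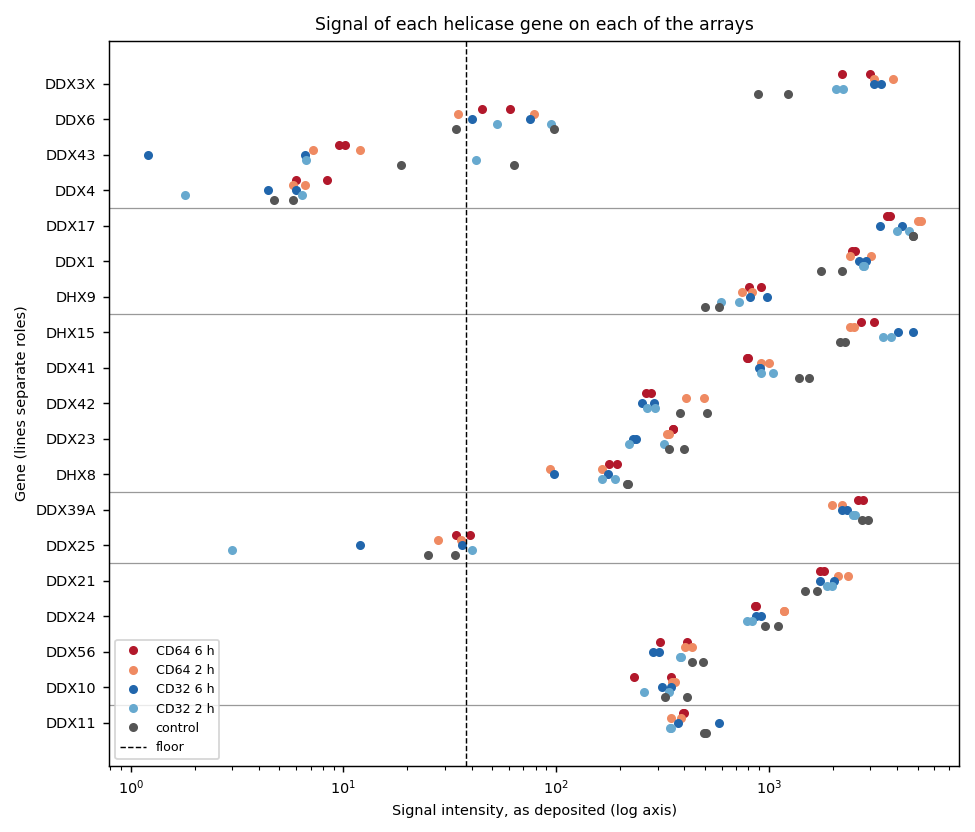
Deposited signal intensity (horizontal log axis) of each helicase gene on each array, with genes down the page in blocks of known role and 1 point per array coloured by group; DDX3Y is not drawn. The dashed line is the floor of 37.5: DDX4 lies to its left on all arrays and the 15 genes from DDX3X to DDX11 that are measured on every array lie to its right, with control points lowest for DDX3X and highest for DDX41.

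A difference was called where the adjusted p was under 0.05 in 1 limma fit over all probe sets, with Benjamini-Hochberg adjustment over 7708 of them. Of the 20 members 19 were tested, DDX3Y among them, for which no level is given because it lies on chromosome Y. Any difference from control (limma F-test over the 4 cross-linked groups) was called for 10 of 19 members, against 34.5% of all probe sets tested and 50.7% of the 4924 that were above the floor on all arrays. The members called were DDX3X, DHX15, DDX41, DDX24, DDX39A, DHX9, DDX42, DDX17, DDX21 and DDX1. The 10 are 52.6% of the 19, dim members included, and 66.7% of the 15 members above the floor on all arrays, among which all 10 lie. The members were chosen with earlier results known, and neither share was tested against other probe sets. That count was 6 without CD64 6 h array 1 and 6 without CD64 2 h array 1.

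After 6 h of CD64 cross-linking 6 of 19 members were called against control, with DDX3X, DHX9 and DHX15 higher and DDX41, DDX42 and DDX17 lower. All probe sets together had 20.6% called (10.7% higher and 9.94% lower), and 30.7% among those above the floor on all arrays. After 2 h of CD64 cross-linking 6 of 19 were called, with DDX3X, DHX9, DDX21 and DDX1 higher and DDX41 and DDX39A lower, against 15.9% of all probe sets (7.64% higher and 8.24% lower) and 23.5% of those above the floor throughout. With CD32 for 6 h, 8 of 19 were called, with DDX3X, DHX15, DHX9 and DDX1 higher and DDX41, DDX42, DDX56 and DDX39A lower, against 20.0% of all (9.63% higher and 10.3% lower) and 28.7% of those above the floor throughout. With CD32 for 2 h, 4 of 19 were called, with DDX3X, DHX15 and DDX1 higher and DDX41 lower, against 15.5% of all (8.86% higher and 6.60% lower) and 22.6% of those above the floor throughout. All members called here are among the 15 above the floor on all arrays, and they are 40%, 40%, 53.3% and 26.7% of those 15 for CD64 6 h, CD64 2 h, CD32 6 h and CD32 2 h. The 4 comparisons share the 2 control arrays, so a high or low control array moves all of them.

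The median member lay at -0.21, -0.04, -0.20 and -0.17 on the log2 scale in CD64 6 h, CD64 2 h, CD32 6 h and CD32 2 h cells relative to control, where the median over all probe sets tested was -0.04, -0.13, -0.08 and -0.03. The arrays of the cross-linked group and of control did not overlap for 12, 12, 14 and 14 of the 19 members in the same order, against 50.2%, 48.0%, 50.8% and 47.6% of all probe sets tested. Those shares include dim probe sets, whose values tie at the floor and then count as overlapping. No such share was counted among probe sets above the floor on all arrays, so the members' counts cannot be judged against them. Counts of calls were sensitive to single arrays. The CD64 6 h count was 3 without either CD64 6 h array. That for CD64 2 h was 3 without CD64 2 h array 2, that for CD32 6 h was 4 without either of its own arrays and 5 without control array 2, and that for CD32 2 h was 2 without either of its own arrays.

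**Figure D2:**
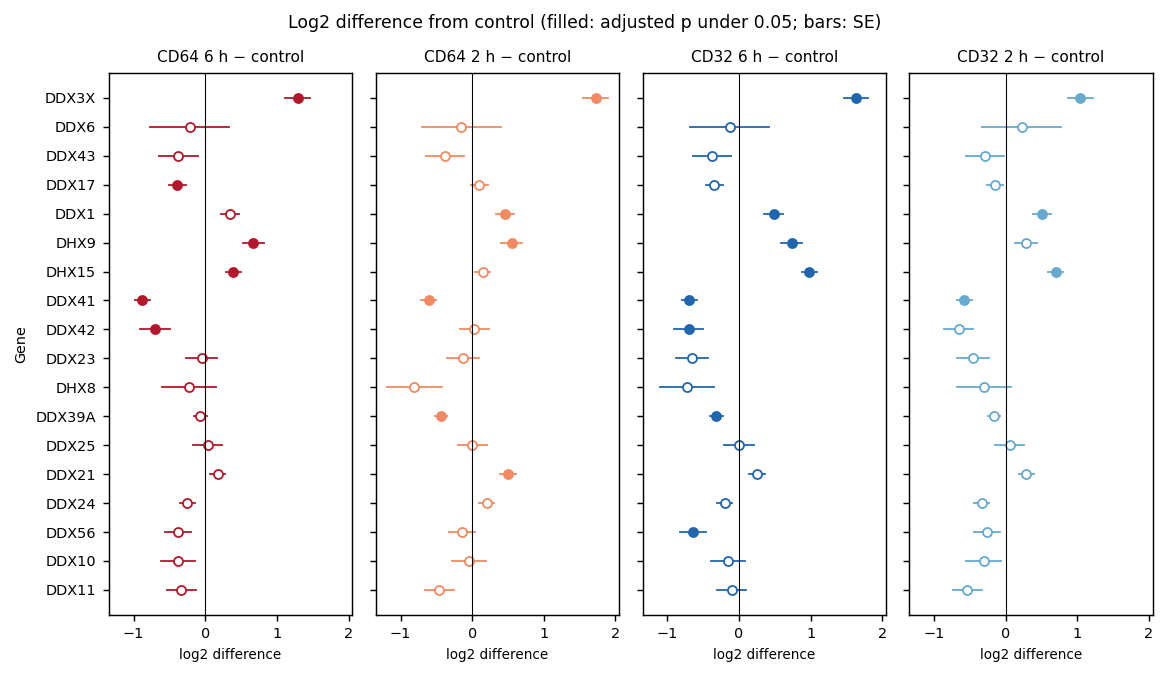
Log2 difference from control (horizontal axis) for each tested helicase gene without DDX3Y, with CD64 6 h, CD64 2 h, CD32 6 h and CD32 2 h from left to right; bars are the standard error and filled points have an adjusted p under 0.05. DDX3X is filled to the right of 0 and DDX41 filled to the left of 0 in each panel, while DHX15 is at 0.15 and open in CD64 2 h and at 0.98 and filled in CD32 6 h.

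Among the helicases of translation and mRNA storage, DDX3X (GRCh38.p14 chrX:41333308-41364472) had the widest distance between group means of any member. DDX3X helps ribosomes to start on mRNAs with structured leaders and takes part in antiviral signalling. Its signal was 2989.6 and 2194.9 in CD64 6 h cells, 3811.8 and 3135.1 in CD64 2 h cells, 3126.6 and 3376.6 in CD32 6 h cells, 2234.2 and 2069.9 in CD32 2 h cells, and 1232.3 and 889.7 in control cells. All 8 cross-linked arrays lay above both control arrays, and none overlapped with them. The log2 difference from control was 1.29 ± 0.17 (SE, n = 2 arrays in each group, as throughout) in CD64 6 h cells, a 2.45-fold higher level, with a limma adjusted p of 0.000382. In CD64 2 h cells it was 1.72, or 3.30-fold higher (adjusted p = 0.000142), in CD32 6 h cells 1.63, or 3.10-fold (8.4e-05), and in CD32 2 h cells 1.04, or 2.05-fold (0.00242). The last call was lost without CD32 2 h array 1, at an adjusted p of 0.0518.

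From 2 h to 6 h DDX3X changed by -0.43 with CD64 (limma adjusted p = 0.145) and by 0.60 with CD32 (0.083), and neither change was called. At 2 h CD64 cells had means of 3473.45 against 2152.05 in CD32 cells, a log2 difference of 0.68 ± 0.17 (adjusted p = 0.0212). At 6 h the CD64 mean was 2592.25 against 3251.6 with CD32, a difference of -0.34 with a 95% interval of -0.73 to 0.04 and no call (adjusted p = 0.231). The difference at 2 h was not called without CD64 2 h array 1 (adjusted p = 0.173) or without either CD32 2 h array (0.106 and 0.179). The receptor by time interaction, which is the 6 h minus 2 h change with CD64 less that with CD32, was -1.03 ± 0.25 (adjusted p = 0.0213). Leaving out CD64 6 h array 2, CD64 2 h array 1 or any CD32 array gave an adjusted p of 0.081 to 0.126. With quantile normalization neither the difference at 2 h (0.0674) nor the interaction (0.0765) was called. Both calls were also lost with no variance trend. DDX3X has a close copy on chromosome Y, DDX3Y, and probes can pair with both.

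DDX6, a helicase of mRNA storage and decay in P-bodies, had signals near the floor (33.9 to 97.2, above it on 8 arrays). Its log2 difference from control was not called in any of the 4 groups, and the arrays of a pair could lie as far apart as 33.9 and 97.2, both from control cells.

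Among the helicases of transcription and RNA processing, DHX9 and DDX1 were each called higher in 3 of the 4 cross-linked groups and DDX17 lower in 1. DHX9, also called RNA helicase A, links transcription activators to RNA polymerase and unwinds double-stranded RNA. Its signal was 918.9 and 803.2 in CD64 6 h cells, 835.1 and 748.9 in CD64 2 h cells, 984.7 and 817.9 in CD32 6 h cells, 594 and 723.1 in CD32 2 h cells, and 580.3 and 501.8 in control cells. Both control arrays were below all 8 cross-linked arrays, although CD32 2 h array 1 came close to them. DHX9 rose by 0.67 ± 0.15 in CD64 6 h cells (1.59-fold, adjusted p = 0.00863), by 0.55 in CD64 2 h cells (1.47-fold, 0.0307) and by 0.73 in CD32 6 h cells (1.66-fold, 0.00564). With CD32 for 2 h the difference was 0.28 with a 95% interval of -0.05 to 0.61 (adjusted p = 0.280). The CD64 6 h call was lost without CD64 6 h array 1 or control array 2 (adjusted p = 0.0911 and 0.0732). That for CD64 2 h was lost without any 1 of its 4 arrays (0.0639 to 0.175), and that for CD32 6 h without CD32 6 h array 1 or control array 2 (0.0674 and 0.052).

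DDX1 is a helicase of the tRNA ligase complex and of RNA 3' end processing. Its signal was 2466.9 and 2533.8 in CD64 6 h cells, 2415.4 and 3006.8 in CD64 2 h cells, 2853.4 and 2644.6 in CD32 6 h cells, 2814 and 2768 in CD32 2 h cells, and 1748.1 and 2212.3 in control cells. The control arrays were the lowest, and control array 1 stood further down than control array 2. DDX1 rose by 0.45 in CD64 2 h cells (1.37-fold, adjusted p = 0.0353), by 0.48 in CD32 6 h cells (1.40-fold, 0.0221) and by 0.51 ± 0.13 in CD32 2 h cells (1.42-fold, 0.0226), and was 0.35 higher without a call in CD64 6 h cells (0.0862). Without control array 1 none of the 3 calls held, with adjusted p-values of 0.246 for CD64 2 h, 0.178 for CD32 6 h and 0.166 for CD32 2 h. The CD64 2 h call was also lost with quantile normalization (0.0822). That call was lost as well without CD64 2 h array 2. The CD32 6 h and CD32 2 h calls were each lost without either array of their own group.

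DDX17 is a co-activator of transcription and a cofactor in microRNA processing. Its signal was 3696.9 and 3578.3 in CD64 6 h cells, 5172.6 and 5026.6 in CD64 2 h cells, 4237.4 and 3315 in CD32 6 h cells, 4008.1 and 4574.2 in CD32 2 h cells, and 4776.5 and 4743.3 in control cells. CD64 2 h arrays were the highest and CD64 6 h arrays were below both control arrays. The log2 difference of CD64 6 h from control was -0.39 ± 0.12 (adjusted p = 0.0354), and that of CD64 6 h from CD64 2 h was -0.49 (0.0176). Both calls were lost without any 1 array of the groups compared, at adjusted p-values of 0.123 to 0.166 and 0.0803 to 0.118. They were also lost with quantile normalization (0.0967 and 0.0989). A second DDX17 probe set, of signal 69.4 to 134.7, was called in no comparison, with a lowest adjusted p of 0.581.

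Of the 5 splicing helicases, DDX41 fell in 4 of 4 cross-linked groups, DHX15 rose in 3 and DDX42 fell in 2, the groups sharing their controls. DHX15 takes the spliceosome apart after splicing and is also known as a sensor of viral RNA. It had a signal of 2701 and 3124.4 in CD64 6 h cells, 2508.7 and 2396.8 in CD64 2 h cells, 4733.4 and 4026 in CD32 6 h cells, 3438.4 and 3739.8 in CD32 2 h cells, and 2162.4 and 2267.6 in control cells. All CD32 arrays were above all CD64 arrays, and all CD64 arrays were above both controls. DHX15 was higher than control by 0.98 in CD32 6 h cells (1.97-fold, adjusted p = 9.41e-05), by 0.70 in CD32 2 h cells (1.62-fold, 0.00139) and by 0.39 ± 0.11 in CD64 6 h cells (1.31-fold, 0.0232), and the difference of 0.15 in CD64 2 h cells was not called (0.429). The CD64 6 h call was lost without CD64 6 h array 2 (0.185), control array 1 (0.125) or control array 2 (0.0705).

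DHX15 was the 1 member called between receptors at both times. CD64 cells were lower than CD32 cells by a log2 difference of -0.59 ± 0.11 at 6 h (adjusted p = 0.0034) and of -0.55 at 2 h (0.00535). The second call was lost without CD32 2 h array 2 (0.0716). Its receptor by time interaction was -0.04, with a 95% interval of -0.37 to 0.29.

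DDX41 is a splicing helicase that is also described as a sensor of cytosolic DNA in myeloid cells. Its signal was 799.5 and 790.4 in CD64 6 h cells, 915.2 and 1003.3 in CD64 2 h cells, 912.4 and 894.9 in CD32 6 h cells, 1043.8 and 916.9 in CD32 2 h cells, and 1378.7 and 1546.4 in control cells. All 8 cross-linked arrays were below both control arrays. DDX41 had a log2 difference of -0.88 ± 0.11 in CD64 6 h cells (1.84-fold lower, adjusted p = 0.000233), of -0.61 in CD64 2 h cells (1.52-fold, 0.00394), of -0.69 in CD32 6 h cells (1.62-fold, 0.0012) and of -0.58 in CD32 2 h cells (1.49-fold, 0.00492). The last was lost without CD32 2 h array 2 (0.0523). Between receptors DDX41 differed by -0.18 at 6 h, with an interval of -0.43 to 0.06, and by -0.03 at 2 h, with an interval of -0.27 to 0.21, and neither was called (0.317 and 0.922).

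DDX42, a helicase that joins the branch-site complex of the spliceosome, had signals of 263.4 and 278.5 in CD64 6 h cells, 495.9 and 409 in CD64 2 h cells, 288.7 and 253.7 in CD32 6 h cells, 291.6 and 267.7 in CD32 2 h cells, and 381.3 and 510.2 in control cells. CD64 2 h arrays overlapped with control arrays, and the other cross-linked arrays were below both. The log2 difference from control was -0.70 ± 0.21 in CD64 6 h cells (adjusted p = 0.0332), -0.70 in CD32 6 h cells (0.0347) and, without a call, -0.66 in CD32 2 h cells (0.0554). CD64 2 h cells were 0.69 above CD32 2 h cells (0.0441), and CD64 6 h cells were lower than CD64 2 h cells by a difference of -0.73 (0.0382). Without control array 2 or either array of the cross-linked group, the calls against control were lost (0.109 to 0.165 for CD64 6 h, 0.0778 to 0.155 for CD32 6 h), and that for CD32 6 h was lost with quantile normalization (0.0698). Those between CD64 and CD32 and between times were lost without any 1 array (0.0805 to 0.245, and 0.0777 to 0.220).

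The other splicing helicases DDX23 (221 to 399.2), a component of the U5 particle, and DHX8 (93.6 to 218.6), which releases spliced mRNA, were not called. DDX23 had a log2 difference of -0.65 in CD32 6 h cells relative to control (adjusted p = 0.0611).

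Of the mRNA export helicases, DDX39A opens mRNPs for passage out of the nucleus. Its signal was 2620.6 and 2760.8 in CD64 6 h cells, 1986.8 and 2197.1 in CD64 2 h cells, 2212.6 and 2322 in CD32 6 h cells, 2478.3 and 2550.4 in CD32 2 h cells, and 2739.6 and 2909.9 in control cells. CD64 2 h arrays were the lowest, and CD64 6 h arrays overlapped with the controls. The log2 difference from control was -0.43 ± 0.09 in CD64 2 h cells (adjusted p = 0.00683) and -0.32 in CD32 6 h cells (0.026). CD64 6 h cells were 0.36 above CD64 2 h cells (0.0183), and the receptor by time interaction was 0.51 ± 0.12 (0.0214). The CD64 2 h call was lost without CD64 2 h array 1 (0.061), and that for CD32 6 h without either CD32 6 h array or control array 2 (0.0559 to 0.123). Between times, the call was lost without either CD64 6 h array or CD64 2 h array 1 (0.0661 to 0.125), and the interaction call without either CD64 6 h or CD32 2 h array, CD64 2 h array 1 or CD32 6 h array 1 (0.0521 to 0.0842). DDX39A has a close copy, DDX39B, which its probe set may also detect.

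Among the ribosome assembly helicases, DDX21 and DDX24 were highest in CD64 2 h cells. DDX21 works on ribosomal RNA in the nucleolus, and its signal was 1823.1 and 1730.6 in CD64 6 h cells, 2110 and 2348.9 in CD64 2 h cells, 2024.6 and 1736.7 in CD32 6 h cells, 1867.7 and 1973.6 in CD32 2 h cells, and 1676.9 and 1480.6 in control cells. The 8 cross-linked arrays were all above both control arrays. DDX21 was called in CD64 2 h cells, at 0.50 ± 0.11 above control (1.41-fold, adjusted p = 0.0101), and not in CD64 6 h (0.17), CD32 6 h (0.25) or CD32 2 h cells (0.29, with an interval of 0.05 to 0.52). The call was lost without CD64 2 h array 2 (0.0843) or control array 2 (0.069).

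DDX24, a nucleolar helicase of the large ribosomal subunit, had signals of 864.9 and 859.8 in CD64 6 h cells, 1183.4 and 1182.8 in CD64 2 h cells, 868.6 and 920.3 in CD32 6 h cells, 834.7 and 790.6 in CD32 2 h cells, and 1098.2 and 958 in control cells. Only the CD64 2 h arrays were above both controls. No single comparison with control was called, and the nearest was CD32 2 h at -0.34 (adjusted p = 0.0548). At 2 h CD64 cells were 0.54 ± 0.10 above CD32 cells (1.46-fold, 0.0053), a call that held without any 1 of those 4 arrays. CD64 6 h cells were lower than CD64 2 h cells by a difference of -0.46 (0.0152), and the receptor by time interaction was -0.59 ± 0.15 (0.026). The call between times was lost without any 1 of the 4 arrays (0.0716 to 0.089), and that of the interaction without any 1 of the 8 arrays except CD32 6 h array 1 (0.0555 to 0.0854).

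DDX56, a nucleolar helicase, had signals of 306.3 and 410 in CD64 6 h cells, 435.2 and 401.8 in CD64 2 h cells, 304.8 and 285.5 in CD32 6 h cells, 386.2 and 382.3 in CD32 2 h cells, and 490.2 and 433.4 in control cells. CD32 6 h arrays were the lowest. It had a log2 difference of -0.64 ± 0.18 from control in CD32 6 h cells (adjusted p = 0.0314), which was lost without any 1 of the 4 arrays (0.0542 to 0.139) and with quantile normalization (0.0584). DDX10 (231.8 to 414.2), also of ribosome assembly, was not called. DDX11 (341.8 to 584.1), a DNA helicase of sister chromatid cohesion, was not called either, and its probe set is of a kind that can pair with related sequences.

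**Figure D3:**
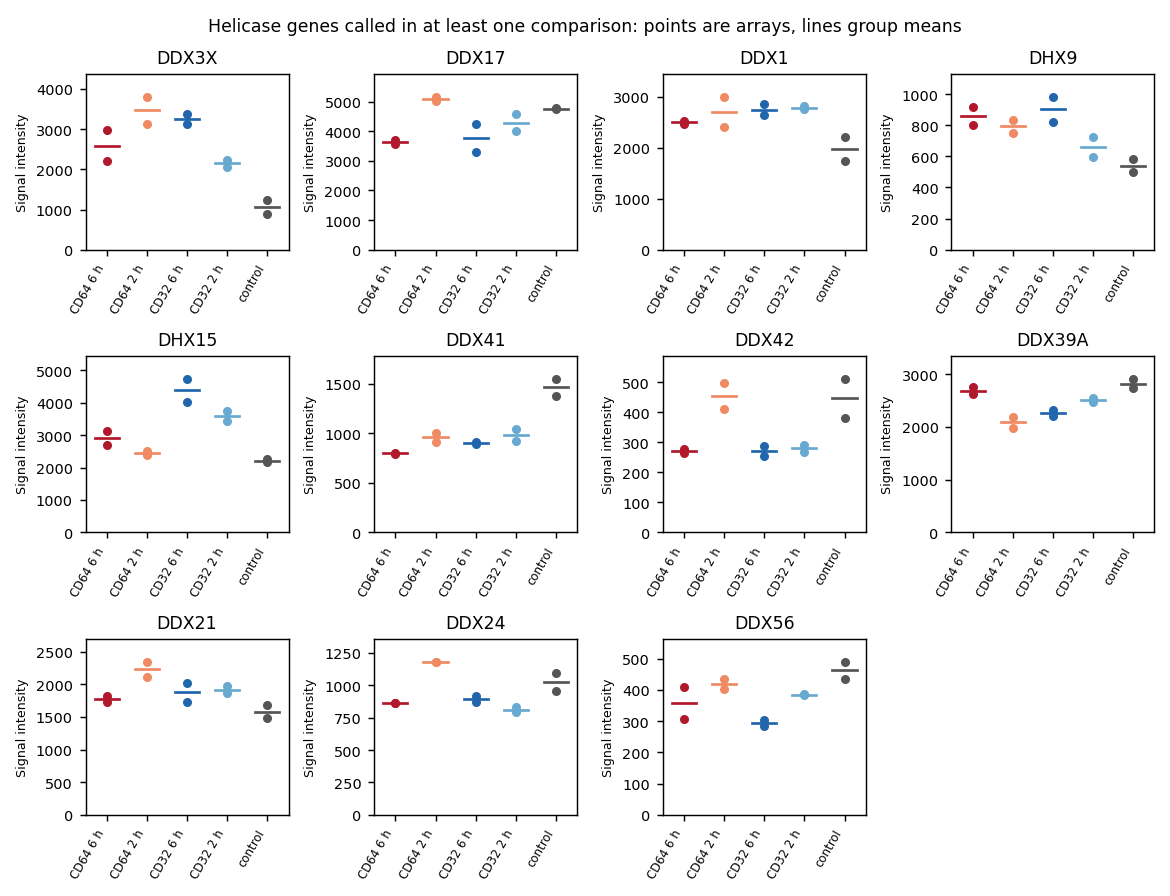
Deposited signal intensity (vertical axis, from 0) of the helicase genes called in at least 1 comparison, with 1 point per array and a line at each group mean, from CD64 6 h at the left to control at the right. Control points are lowest for DDX3X, DDX1, DHX9, DHX15 and DDX21 and highest for DDX41, and the CD32 points of DHX15 lie above its CD64 points.

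Between receptors, DHX15 was called at both times, and the other calls were at 2 h. CD64 against CD32 at 6 h gave 1 call of 19 members (DHX15, lower with CD64), against 17.6% of all probe sets tested (9.81% higher and 7.80% lower) and 26.1% of those above the floor on all arrays. At 2 h the same contrast gave 4 (DDX3X, DDX24 and DDX42 higher, DHX15 lower), against 16.3% of all (6.86% higher and 9.43% lower) and 24.0% of those above the floor. The 6 h against 2 h contrast within CD64 gave 4 (DDX39A higher, DDX17, DDX24 and DDX42 lower), against 13.8% of all (7.56% higher and 6.25% lower) and 20.5% of those above the floor. Within CD32 it gave 0 by limma, against 4.46% of all (2.04% higher and 2.43% lower) and 6.70% of those above the floor. The lowest adjusted p-values of members there were those of DDX3X (0.60, adjusted p = 0.083), DHX9 (0.45, 0.125) and DHX15 (0.28, 0.171). Of the 15 members above the floor on all arrays, 6.67% and 26.7% were called between receptors at 6 h and 2 h. Between times, 26.7% of the 15 were called within CD64 and 0% within CD32. Interaction calls were 3 (DDX39A higher, DDX3X and DDX24 lower), against 11.5% of all probe sets tested (6.72% higher and 4.75% lower). They are 20% of the 15 members, and no interaction share was counted among all probe sets above the floor throughout.

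Single arrays moved these counts as well. The CD64 against CD32 count at 2 h was 2 without CD64 2 h array 1, 2 without CD32 2 h array 1 and 1 without CD32 2 h array 2. The count between times within CD64 was 0 without either CD64 6 h array or CD64 2 h array 1, and 1 without CD64 2 h array 2. The interaction count was 0 without CD64 6 h array 2, CD64 2 h array 1 or either CD32 2 h array, and 1 without CD64 6 h array 1 or either CD32 6 h array.

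**Figure D4:**
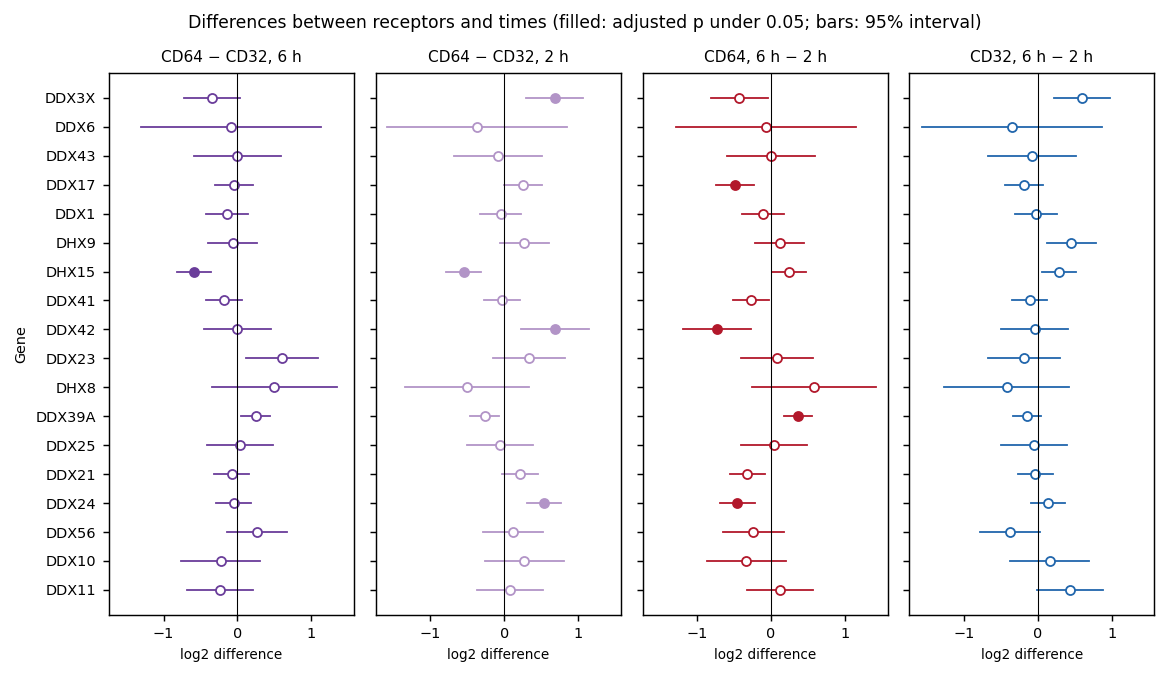
Log2 differences (horizontal axis) of CD64 minus CD32 at 6 h and at 2 h and of 6 h minus 2 h within CD64 and within CD32, for each tested helicase gene without DDX3Y; bars are 95% intervals and filled points have an adjusted p under 0.05. DHX15 is filled to the left of 0 in both receptor panels, and the panel of 6 h minus 2 h within CD32 has no filled point.

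In the comparison of CD64 2 h with control the median of all probe sets was -0.13, and with quantile normalization it was 0. Relative to that median, the differences of the members called there were 1.86 for DDX3X, 0.68 for DHX9, 0.63 for DDX21, 0.59 for DDX1, -0.30 for DDX39A and -0.48 for DDX41. For CD64 against CD32 at 2 h the median was -0.11, and relative to it the differences were 0.79 for DDX3X, 0.79 for DDX42, 0.65 for DDX24 and -0.44 for DHX15. All kept their direction.

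The helicases outside the DDX and DHX names and the partner proteins of the family were read from the same fit. Of 6 other RNA helicases on the array, IFIH1, which senses double-stranded RNA, was called higher in CD64 6 h cells (2.25), CD32 6 h cells (1.72) and CD32 2 h cells (0.84), and not in CD64 2 h cells (0.21, adjusted p = 0.560). No other of the 6 was called against control. Of 32 partners and cofactors, 9 were called in CD64 6 h cells (4 higher, 5 lower), 6 in CD64 2 h cells (4 and 2), 9 in CD32 6 h cells (4 and 5) and 7 in CD32 2 h cells (4 and 3). These are 28.1%, 18.8%, 28.1% and 21.9% of the partners, against 20.6%, 15.9%, 20.0% and 15.5% of all probe sets tested. Among probe sets above the floor on all arrays the shares were 30.7%, 23.5%, 28.7% and 22.6%. The partners were not limited to such probe sets, so their shares cannot be ranked against these. The partners' median log2 difference was -0.16, -0.07, -0.12 and -0.15 in the same order. EIF4G2, a translation factor, rose in CD64 6 h (0.52), CD64 2 h (0.66), CD32 6 h (0.95) and CD32 2 h cells (0.85). NXT1, a cofactor of the mRNA exporter NXF1, rose by 0.76, 1.49, 0.57 and 0.72 in that order. PRPF8, the core protein of the spliceosome, fell by 0.99 in CD64 6 h cells, by 0.71 in CD64 2 h cells and by 0.37 in CD32 2 h cells, and was at -0.16 without a call in CD32 6 h cells. RBM8A, of the exon junction complex, rose by 1.94 in CD64 6 h cells, by 1.38 in CD64 2 h cells and by 1.05 in CD32 2 h cells, and was at 0.22 without a call in CD32 6 h cells.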

How the data were processed

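The authors deposited 1 table of signal intensity values for 10 single-channel arrays, and per the labels each array held total RNA of U937 cells. The program that made the deposited intensities, and its scaling, is not given in the sources used here. Gene symbols came from the platform annotation, with 7840 probe sets of 1 symbol, 388 of several and 518 of none, and gene positions and promoters came from RefSeq (GRCh38.p14). The 47 control probe sets were left out.

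A floor of 37.5, the 25th percentile of all values without controls, replaced any lower intensity before the log2 step. Only probe sets that exceeded it on 2 or more arrays entered the fit in limma 3.58.1 (R 4.3.3), with 1 mean per group, eBayes with a trend, 5 residual and 5.65 prior degrees of freedom, two-sided tests and Benjamini-Hochberg adjustment. A fold change is therefore on the floored log2 scale, and the number of arrays limits the precision. Alternatives were other normalization (quantile, cyclic loess), other floors and filters, no variance trend, only the groups compared, other probe sets of a gene and each array left out.

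The members, gene lists and roles were chosen with earlier results of these data known. Members called in at least 1 comparison or in the F-test, and the 2 members of highest and the 2 of lowest mean signal, are named with their values, and the other members by their range. Partners named are examples among those called in 3 or more comparisons with control, chosen after their values were seen. One source label of a CD32 2 h array names another receptor, and its title and description were followed. No list was tested as a set.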

Additional observations from a re-analysis of the deposited data

Results flagged for a closer look

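The 6 h minus 2 h change differed between receptors for 3 members by the test of the difference itself, the limma interaction term over the 4 cross-linked groups. They are 15.8% of the 19 members tested, where 11.5% of all probe sets tested, dim ones included, were called. All 3 are among the 15 members above the floor on all arrays, of which they are 20%. No interaction share was counted among all probe sets above the floor throughout, so the members' share cannot be judged against it. The change with CD64 less that with CD32 was -1.03 ± 0.25 (SE) on the log2 scale for DDX3X (adjusted p = 0.0213), -0.59 ± 0.15 for DDX24 (0.026) and 0.51 ± 0.12 for DDX39A (0.0214). Within CD64, the 6 h minus 2 h difference was -0.43 for DDX3X (limma adjusted p = 0.145, not called), -0.46 for DDX24 (0.0152) and 0.36 for DDX39A (0.0183). Within CD32, DDX3X was at 0.60 (0.083), DDX24 at 0.14 (0.555) and DDX39A at -0.15 (0.415), none of them called. Each of the 3 interaction calls was lost in most of the runs that left out 1 cross-linked array. All were also lost with no variance trend.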

How the results depend on the processing

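No paired analysis was possible because the cross-linked groups carry no replicate numbers in the labels. None of the 36 called member results changed direction under any alternative run, but most runs could not have changed it. Other floors and filters, no variance trend and only the groups compared left the log2 difference of these members as it was. In each call between groups the arrays did not overlap, so leaving out any 1 array could not reverse it. Of 20 results named without a call, 3 changed direction, all in CD64 2 h cells against control: DDX17 (0.10 as reported, lowest -0.21, with its second probe set), DDX42 (0.03, lowest -0.18, without control array 1) and DDX56 (-0.14, highest 0.01, with cyclic loess). Of the 36, 10 held without any 1 array, 29 with quantile normalization, 32 with cyclic loess, 25 with no filter on dim probe sets, 17 with no variance trend, and 36 at either other floor. With only the groups compared 7 of 33 held. Those past the threshold in every alternative were DDX3X and DDX41 in CD32 6 h cells, DDX41 in CD64 6 h cells, DHX15 in CD32 6 h and CD32 2 h cells, and DDX24 between CD64 and CD32 at 2 h.

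Members called with only the groups compared numbered 2 for CD64 6 h, 0 for CD64 2 h, 3 for CD32 6 h and 1 for CD32 2 h against control, 0 and 1 for CD64 against CD32 at 6 h and 2 h, and 0 for CD64 6 h against 2 h. All probe sets called in the same 7 fits numbered 647, 0, 385, 233, 508, 302 and 3, where the fit to all groups called 1591, 1224, 1539, 1192, 1357, 1256 and 1065. For CD32 6 h against 2 h it was 0, where the full fit called 344. These fits have 2 residual degrees of freedom, fewer than the 5 of the full fit. With no variance trend members called were 2 for CD64 2 h against control (725 of all probe sets), 1 for CD64 against CD32 at 2 h (830), 0 for CD64 6 h against 2 h (579), 0 for CD32 6 h against 2 h (54, against 344), 0 for the interaction (417, against 884, and 574 with quantile normalization) and 4 for the F-test. With no filter they were 2 for CD64 6 h against 2 h and 6 for the F-test. CD64 against CD32 at 6 h had 2 with quantile normalization, with cyclic loess and above the floor on all arrays, where CD32 6 h against 2 h had 1. The cause was not tested.

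With each array left out in turn, members called ranged from 3 to 4 for CD64 6 h, 3 to 5 for CD64 2 h, 4 to 6 for CD32 6 h and 2 to 5 for CD32 2 h against control, 1 to 3 for CD64 against CD32 at 2 h, 0 to 1 for CD64 6 h against 2 h, 0 to 2 for the interaction and 6 to 10 for the F-test. All probe sets called ranged over 967 to 1290, 642 to 988, 942 to 1316 and 579 to 885 in the 4 comparisons with control, 646 to 946 and 586 to 770 for CD64 against CD32 at 6 h and 2 h, 455 to 602 and 40 to 130 for 6 h against 2 h within CD64 and CD32, and 468 to 602 for the interaction. A lone array is then assumed to vary like the other groups, and fewer arrays leave fewer degrees of freedom.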
